A study of Mus musculus with 6 samples.

Results

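The genes described are those of the cytosolic ribosomal proteins, the protein parts of the ribosome that translates nuclear-encoded mRNA. They were taken by symbol, as Rpl for the large subunit or Rps for the small one followed by a number and at most 1 of the letters a, l and x, plus Rplp0, Rplp1, Rplp2 and Rpsa. Pseudogenes with "-ps" in their symbol and the Rps6k kinases stayed out. That rule found 82 of the 32479 rows of the expression table, 50 of the large and 32 of the small subunit. The libraries were 6 RNA sequencing libraries from C57BL/6J mice, 3 from untreated control mice and 3 from mice given carbon tetrachloride (CCl4), a liver-toxic solvent used to model cirrhosis. All 6 were labelled as primary cardiac fibroblasts, with 3 mice per group in the design text. Not given in the sources used here were the dose, route and duration of CCl4, the age and sex of the mice and the cell isolation. The comparison asks how the heart preparation of cirrhosis-model mice differs from that of controls.

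A ribosome needs 1 copy of nearly every ribosomal protein, so cells make these proteins in matched amounts. Their mRNAs are short, abundant and, in mammals, typically begin with a terminal oligopyrimidine (TOP) tract, a C followed by a run of C and T bases. Through this tract the mTOR pathway, with the RNA-binding protein LARP1, controls how strongly they are translated. Rpl3l, a copy of Rpl3, is made mainly in heart and skeletal muscle, where it takes the place of the general form in part of the ribosomes.

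Levels are FPKM, fragments scaled to transcript length and to the mapped fragments of the library, as deposited by the authors. Differences are on the log2(FPKM + 1) scale, CCl4 minus control, with the standard error (SE), from limma fitted over the 10995 rows that averaged at least 1 FPKM. A gene was called, and is written of as higher or lower, at a Benjamini-Hochberg adjusted p under 0.05 in that fit. Of the 82 genes, 80 passed the filter, 48 of the large and 32 of the small subunit. The other 2, Rpl32l and Rpl39l, were not tested.

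Markers of several cell types were present in every library. The 18 cardiomyocyte markers summed to 17294.1 to 19751.2 FPKM in control and 22038.5 to 24120.5 in CCl4 libraries, against 472.9 to 776.8 and 616.5 to 622.9 for the 13 fibroblast markers. The label of isolated fibroblasts therefore does not match the most abundant marker RNA, and "heart preparation" is used here. Over all tested rows 22.2% were lower and 9.64% higher, the background for the counts that follow. Of the tested markers, 2 of 18 for cardiomyocytes were lower and 3 higher, and 7 of 13 for fibroblasts were higher. Of 10 endothelial markers 1 was higher (sums of 211.8 to 247.8 and 223.3 to 244.1), of 8 smooth muscle and pericyte markers 2 were higher (199.8 to 232.2 and 168.1 to 248.6), and of 9 macrophage markers 1 was lower and 1 higher (154.6 to 198.4 and 173.3 to 191.3). All 5 tested erythroid markers of 6 were higher (537.0 to 2268.1 and 2230.8 to 4092.1), and none of 9 lymphocyte markers reached the filter (2.43 to 3.82 and 1.49 to 2.6). No marker was listed at 0 in all 6 libraries. Their part in the ribosomal protein values was not tested. In bulk RNA, fewer cells of a type and less RNA per cell cannot be told apart.

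Start sites are shown first, because the TOP tract is the sequence by which this family is known. RefSeq start regions (GRCm38.p6) were matched for 60 of the 82 genes. Each line gives 30 bases of the gene's own strand, 15 before the annotated first transcribed base and 15 from that base on, for genes whose values follow below. Capitals mark a C followed by at least 4 bases that are each C or T, within 20 bases of the first base. The tract of Rpl37a starts just outside its window.
Rps6, chr4:86857353-86857382, minus strand: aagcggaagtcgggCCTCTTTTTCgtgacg
Rps27, chr3:90213634-90213663, minus strand: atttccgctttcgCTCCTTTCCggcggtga
Rplp2, chr7:141447636-141447665, plus strand: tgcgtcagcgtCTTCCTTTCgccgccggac
Rpl7a, chr2:26910792-26910821, plus strand: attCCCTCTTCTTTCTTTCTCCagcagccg
Rps9, chr7:3704026-3704055, plus strand: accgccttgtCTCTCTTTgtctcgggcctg
Rpl37a, chr1:72711245-72711274, plus strand: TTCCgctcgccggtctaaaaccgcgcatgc
Rps28, chr17:33824548-33824577, minus strand: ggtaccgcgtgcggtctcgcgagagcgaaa
Rpl3l, chr17:24727811-24727840, plus strand: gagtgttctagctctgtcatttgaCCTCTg
Rps6, Rps27 and Rplp2 carried the tract at the annotated first base itself. In Rpl7a and Rps9 it ran across that base, and Rps28 held none in this window. The 5 bases of the Rpl3l tract lay 9 bases after the first base, and another RefSeq start of Rpl3l held none.

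A C at the first base, followed by at least 4 C or T bases, was present in 14 of the 60 genes (23.3%), against 813 of 27025 gene symbols in the whole table (3.0%). Within 20 bases on either side it was present in 48 genes (80.0%), against 49.9% of all symbols. Of 5 further motifs, searched on both strands of the 300 bases around the start, CCGGAAG, the core bound by ETS factors such as GABPA, was in 41.7% of the 60 genes and 9.9% of all symbols. GGGCGG, the GC box, was in 58.3% and 38.2%. The YY1 core AAGATGG was in 15.0% and 7.3%, the E-box CACGTG in 6 genes and 8.1%, and TATAAA in 11.7% and 15.7%. None of these motifs holds another. A match describes these letters only. Among tested genes, 26 of 46 with a tract near the start were lower in CCl4 (median log2 difference -0.32), and 9 of 12 without one (median -0.37). Over all tested rows 22.2% were lower.

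Most cytosolic ribosomal protein genes were lower in CCl4 libraries, with close medians in both subunits. Of the 80 tested genes 51 were lower and 1, Rpl3l, was higher. The background over all tested rows was 22.2% lower and 9.64% higher, against 63.8% of these genes lower. The median log2 difference was -0.34, with the middle 50% of genes between -0.44 and -0.25, against -0.09 over all tested rows. A difference below 0 was found in 77 of 80 genes and in 62.6% of all rows. The genes called lower stood at 44.1% to 82.1% of their control mean, with a median of 75.0%. All 3 CCl4 libraries lay below all 3 control libraries in 59 of the 80 genes, where 34.0% of all rows did so. All 3 lay above in 1 gene, Rpl3l, and in 14.7% of all rows.

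**Figure D1:**
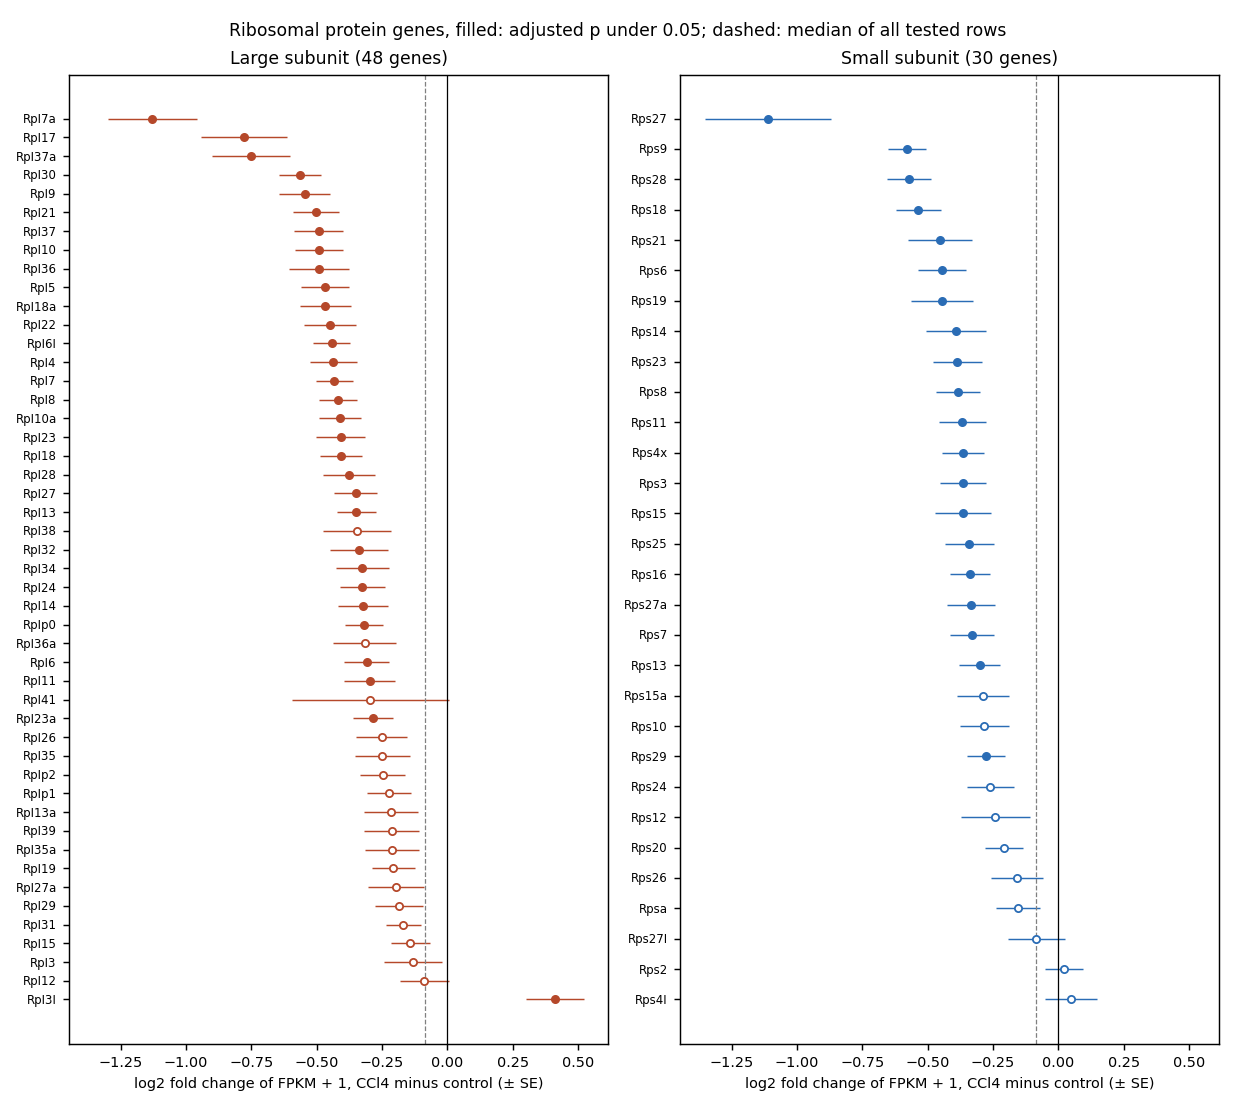
Log2 difference (CCl4 minus control, log2(FPKM + 1) scale, bars ± SE, n = 3 libraries per group) of the 48 tested large-subunit genes and 30 of the tested small-subunit genes, ordered by value, with filled points for adjusted p under 0.05 in limma and a dashed line at the median of all tested rows. All but Rpl3l, Rps2 and Rps4l lie left of 0, and Rpl7a and Rps27 lie farthest left.

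The medians of the large and the small subunit were close. Of 48 large-subunit genes 30 were lower, with a median of -0.33, and of 32 small-subunit genes 21 were lower, with a median of -0.34. The counts moved apart under other processing. They were 17 of 48 against 6 of 32 with TMM scaling (background over all rows 15.5%). With quantile scaling they were 17 against 7, and with median-ratio scaling 16 against 5 (background 14.9% each). Without CCl4 replicate 2 they were 20 against 8 (background 17.3%), and without CCl4 replicate 3 they were 19 against 7 (14.1%). Whether the subunits differ was not tested. Summed over the large subunit, control libraries 1 to 3 held 3544.9, 3789.5 and 3838.3 FPKM, and CCl4 libraries 3162.5, 2837.0 and 2873.6. The small subunit summed to 2296.6, 2533.3 and 2487.9 in control and 2108.3, 1848.9 and 1896.4 in CCl4 libraries. Every CCl4 sum was below every control sum in both subunits. The ratio of the large to the small sum was 1.544, 1.496 and 1.543 in control and 1.5, 1.534 and 1.515 in CCl4 libraries, so the groups overlapped. The median log2 level of the large subunit exceeded that of the small one by 0.22, 0.07 and 0.13 in control and by 0.17, 0.23 and 0.16 in CCl4 libraries, again with overlap.

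Libraries within a group differed in a shared way across these genes. Control replicate 1 was the lowest control library in 63 of 80 genes, against 28.6% of all rows, and CCl4 replicate 1 was the highest CCl4 library in 65, against 23.2% of all rows. Without CCl4 replicate 1 the count of lower genes was 63 (background over all rows in the same fit 16.1%), and without control replicate 1 it was 56 (background 19.2%). Leaving out CCl4 replicate 3 gave 26 (14.1%), CCl4 replicate 2 gave 28 (17.3%), control replicate 2 gave 32 (15.3%) and control replicate 3 gave 34 (17.3%). With no filter on low values, 16 of the 82 genes were lower (background 4.01%).

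How many genes were called also moved with the scaling of the libraries. Rows of the mitochondrial genome and 7 nuclear copies of them took 65.26% to 68.51% of the FPKM sum in control and 71.52% to 72.09% in CCl4 libraries. Without those rows the 82 genes made up 3.24%, 3.70% and 3.67% of the remaining sum in control and 3.13%, 2.80% and 2.82% in CCl4 libraries. In that fit, added after seeing the data, 40 genes were lower (background 17.5%). With the mitochondrial rows removed but their nuclear copies kept, as planned, 66 genes were lower (3124 of all 10963 tested rows). Under TMM scaling 23 were lower (background 15.5%), under quantile scaling 24 and under median-ratio scaling 21 (background 14.9% each), all of them among the 51. Rpl3l was the 1 higher gene under these 3 scalings (background 13.9%, 15.7% and 14.3% higher) and without the mitochondrial rows and copies (12.2%), and was not called with TPM (5.39%). Rescaling to TPM, which sets all libraries to 1 common sum, gave 73 (background 34.9%) and moved the median of all tested rows from -0.09 to -0.22. The median of the tested ribosomal protein genes was -0.50 under TPM, -0.25 under TMM, -0.21 under quantile and -0.24 under median-ratio scaling. The median of all tested rows was -0.02 under TMM and -0.01 under both quantile and median-ratio scaling. Between 75 and 79 of the 80 genes had a difference below 0 under these 4 scalings.

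**Figure D2:**
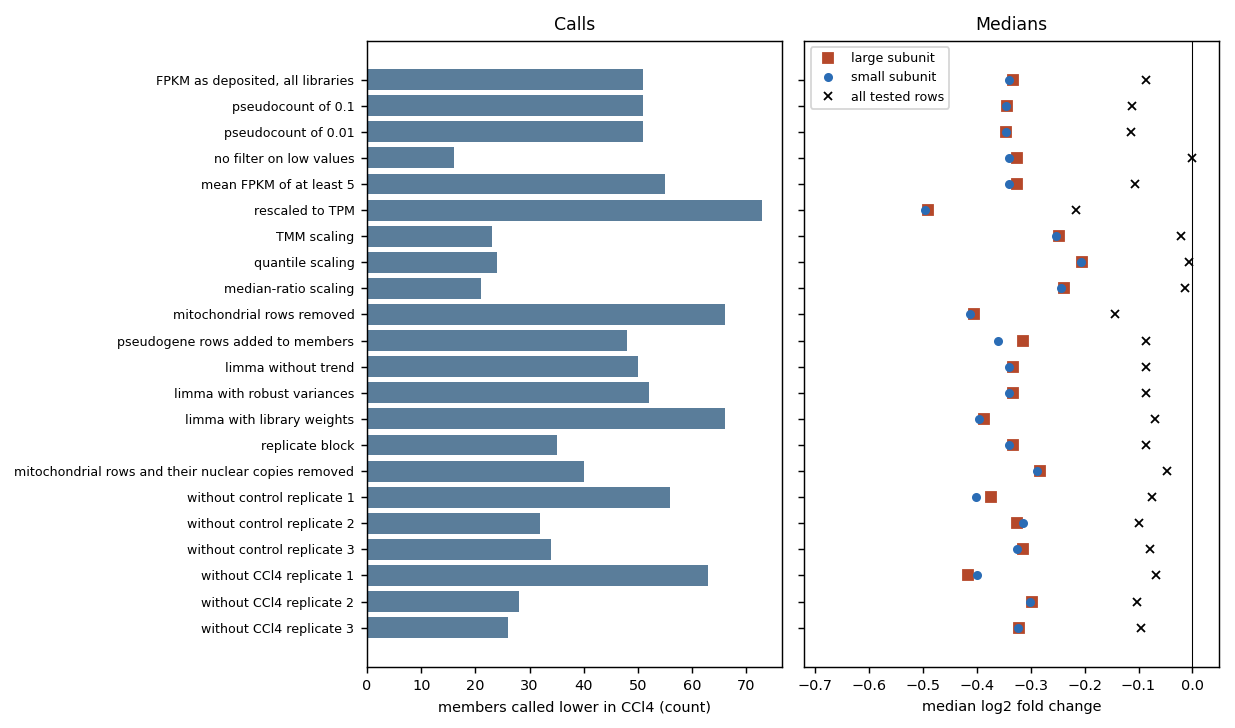
Left, number of ribosomal protein genes called lower in CCl4 (adjusted p under 0.05, limma) under the processing as reported and each alternative. Right, median log2 difference of the large subunit (squares), the small subunit (circles) and all tested rows (crosses). Counts range from 16 to 73 while the medians of both subunits stay near each other and left of the crosses.

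As listed, levels of the tested genes spanned a 68.8-fold range. Rplp0, the base of the stalk that recruits elongation factors, was highest at a mean of 331.0 FPKM over the 6 libraries. Rplp1, its partner in the stalk, followed at 282.0 FPKM and Rps15 at 275.1 FPKM. Rpl21 was the lowest tested gene at 4.81 FPKM, and Rps28 averaged 7.14 FPKM. With its 13 "-ps" pseudogene rows added, Rpl21 averaged 99.8 FPKM in control and 71.8 in CCl4 libraries, so its low place holds for the listed row only. FPKM is scaled by transcript length, but a row whose reads fit several near-identical copies can be listed too low, as described below. Across the 80 genes the log2 difference had a Pearson correlation of 0.13 and a Spearman correlation of 0.05 with the log2 mean level, and of 0.15 and 0.14 with transcript length. Those points share the same 6 libraries and serve as description only.

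The 6 lowest log2 differences among called genes belonged to Rpl7a, Rps27, Rpl17, Rpl37a, Rps9 and Rps28. Rps9, a small-subunit protein that helps keep decoding accurate (chromosome 7, 3703993 to 3706897), had 90.84, 95.18 and 95.91 FPKM in control and 65.62, 61.59 and 60.46 in CCl4 libraries. Its groups lay far apart beside their spread, 94.0 ± 2.74 against 62.6 ± 2.71 FPKM (SD, n = 3 each), for a log2 difference of -0.58 (SE 0.07, limma adjusted p = 0.00117). Rps28, a small protein near the mRNA exit (chromosome 17, 33819027 to 33824562), had 8.21, 9.08 and 8.89 FPKM in control and 5.97, 5.00 and 5.68 in CCl4 libraries. No CCl4 value reached a control value, and the log2 difference was -0.57 (SE 0.08, limma adjusted p = 0.00214). Both were called lower under all 21 alternatives, as were Rpl10a, Rpl18, Rpl6l, Rpl7, Rpl8 and Rps18.

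The other 4 of these 6 had larger differences and wider spread. Rpl7a, a large-subunit protein (chromosome 2, 26910764 to 26913318), had 33.16, 51.41 and 45.66 FPKM in control and 22.77, 16.94 and 17.73 in CCl4 libraries, a log2 difference of -1.13 (SE 0.17, limma adjusted p = 0.0024). Rps27, a zinc-finger protein of the small subunit (chromosome 3, 90212522 to 90213651), had 29.49, 42.56 and 39.69 FPKM in control and 22.57, 18.11 and 10.88 in CCl4 libraries, a log2 difference of -1.11 (SE 0.24, limma adjusted p = 0.0106). The groups did not overlap in either gene, and the lowest control value of both came from replicate 1. Rpl17, which lines the tunnel through which the new protein leaves (chromosome 18, 74998558 to 75003381), had 35.52, 43.06 and 27.74 FPKM in control and 21.20, 22.44 and 16.61 in CCl4 libraries, a log2 difference of -0.78 (SE 0.17, limma adjusted p = 0.00999). Rpl37a, a zinc-binding large-subunit protein (chromosome 1, 72711290 to 72713813), had 33.07, 32.98 and 38.22 FPKM in control and 15.67, 21.79 and 24.09 in CCl4 libraries, a log2 difference of -0.75 (SE 0.15, limma adjusted p = 0.00747). Here too every CCl4 library lay below every control library.

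**Figure D3:**
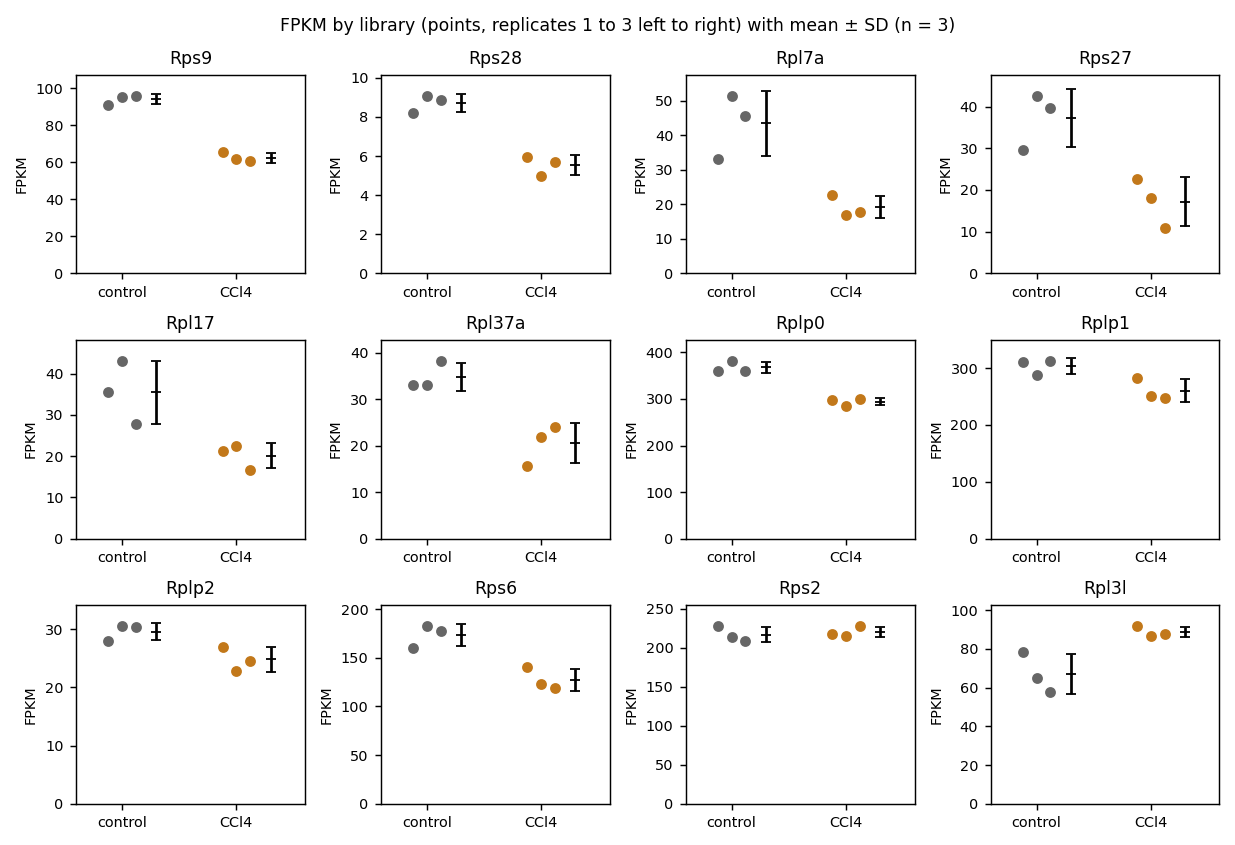
FPKM of 12 ribosomal protein genes in each library (points, replicates 1 to 3 from left to right, control grey, CCl4 orange) with mean ± SD (n = 3) beside them, each panel from 0. Rps9 and Rps28 show tight groups that do not overlap, Rps2 shows overlapping groups, and Rpl3l is the panel in which the CCl4 libraries lie above the control libraries.

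Ribosomal protein genes have many processed pseudogenes with nearly the same sequence, which bears on every value here. In GENCODE M21 transcripts, a median of 96.4% of the 31-base words of a member's coding sequence also stood in a transcript of another gene, and 32 of the 82 genes shared 100%. Not given in the sources used here is how the authors' quantification placed reads that fit several genes. Genes that shared under 50% included Rpl3l (0%), Rpl8 (11.1%), Rpl39l (13.8%), Rps3 (19.0%), Rps4l (30.8%) and Rpl4 (39.0%). Of these, Rpl8 had a control mean of 173.3 and a CCl4 mean of 129.3 FPKM, Rpl4 of 247.1 and 181.7, and Rps3 of 53.6 and 41.5, and all 3 were lower. Of the 6 tested genes that shared under 50%, 4 were lower, with a median of -0.36. Of 42 that shared 50% to under 100%, 27 were lower (median -0.34), and of 32 that shared 100%, 20 (median -0.33). The background was 22.2%.

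Single genes did depend on their copies. The table held 236 rows named as "-ps" pseudogenes of these genes, which summed to 22.8% to 25.6% of the members' sum, and 84 of them reached the filter. Of those 84, limma called 16 lower and none higher (27 and 0 without adjustment), with a median of -0.22. That is 19.0% lower, under the background of 22.2%. With each gene's pseudogene rows added to it, 48 members were lower (background 22.1%), 45 of them among the 51. For Rpl7a the log2 difference went from -1.13 to -0.24 (limma adjusted p = 0.039). Its copy Rpl7a-ps11 had 85.22, 79.99 and 84.29 FPKM in control and 85.16, 87.78 and 87.51 in CCl4 libraries, more than Rpl7a itself. For Rpl17 the difference went from -0.78 to -0.25 (limma adjusted p = 0.191), since its pseudogene rows summed to 247.5 ± 39.4 FPKM in control and 218.4 ± 37.8 FPKM in CCl4 libraries (mean ± SD, n = 3). Rps19, the gene most often mutated in Diamond-Blackfan anaemia, went from -0.45 to -0.24 (adjusted p = 0.354), and Rpl34 from -0.33 to -0.10 (adjusted p = 0.545). In the other direction, Rps26 went from -0.16 to -0.48 (adjusted p = 0.0183) and Rps15a from -0.29 to -0.42 (adjusted p = 0.0232), both in limma. Rps9 and Rps28 had no row named as their "-ps" pseudogene, so the addition changed neither, although 100% of the words of Rps28 also stood in Gm10443 and 55.6% of those of Rps9 in Gm5905. All coding words of Rps27 also stood in Rps27rt, its retrogene, which had 38.96, 32.61 and 34.69 FPKM in control and 20.28, 17.31 and 35.56 in CCl4 libraries (limma adjusted p = 0.0831).

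Of the 3 stalk proteins of the large subunit 1 was lower (background 22.2%), with a median of -0.25. Rplp0 had 360.66, 381.54 and 360.77 FPKM in control and 297.04, 285.74 and 300.30 in CCl4 libraries, and was lower by a log2 difference of -0.32 (SE 0.07, limma adjusted p = 0.012), with adjusted p = 0.0846 under TMM scaling and 0.101 under median-ratio scaling. Rplp1 had 310.60, 288.36 and 312.49 FPKM in control and 283.23, 250.08 and 247.29 in CCl4 libraries (-0.22, limma adjusted p = 0.074). Rplp2 had 27.95, 30.50 and 30.32 FPKM in control and 26.99, 22.85 and 24.56 in CCl4 libraries (-0.25, limma adjusted p = 0.0564). The groups did not overlap in any of the 3, although 2 missed the threshold. CCl4 libraries lay wholly below control libraries in 34.0% of all tested rows. Rplp1 and Rplp2 form dimers in the stalk, and Rplp1 was listed far above Rplp2 in every library.

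Rpl5 and Rpl11, which carry the 5S rRNA into the large subunit and can bind MDM2 when assembly is disturbed, were both lower. Rpl5 had 61.29, 70.44 and 72.70 FPKM in control and 52.29, 46.46 and 47.98 in CCl4 libraries, a log2 difference of -0.47 (SE 0.09, limma adjusted p = 0.00697). Rpl11 had 43.33, 51.97 and 50.24 FPKM in control and 42.84, 36.87 and 38.01 in CCl4 libraries, a log2 difference of -0.30 (SE 0.10, limma adjusted p = 0.0477). In Rpl11 CCl4 replicate 1 almost reached control replicate 1, and its call was lost under 11 of the 21 alternatives, with adjusted p from 0.0503 to 0.212.

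Of 8 proteins around the exit tunnel 3 were lower (background 22.2%), with a median of -0.25. With TPM all 8 were lower (background 34.9%), and with no filter 1 (4.01%). The 3 lower genes were Rpl17, given above, Rpl4 (-0.44, limma adjusted p = 0.00848) and Rpl23a (-0.28, limma adjusted p = 0.0254). Rpl39, a very short protein of the tunnel, had 13.46, 13.99 and 15.67 FPKM in control and 13.94, 10.72 and 12.25 in CCl4 libraries, so the groups overlapped (-0.21, limma adjusted p = 0.155). Rpl19 averaged 169.9 ± 14.8 and 146.7 ± 1.76 FPKM (SD, n = 3 each; limma adjusted p = 0.0909), and Rpl31 49.0 ± 1.32 and 43.5 ± 0.166 (adjusted p = 0.0886), with no overlap in either. Rpl26 and Rpl35 had values of -0.25 each and did not pass the test.

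In the head of the small subunit, the part that swivels as mRNA and tRNA move on, 10 of 14 genes were lower (background 22.2%), with a median of -0.34. That count was 14 with TPM (background 34.9%), 2 with TMM (15.5%), 2 with median-ratio (14.9%) and 3 with quantile scaling (14.9%). It was 4 with no filter (4.01%), 2 without CCl4 replicate 3 (14.1%) and 3 without CCl4 replicate 2 (17.3%). Without control replicate 2 or 3 it was 5 (15.3% and 17.3%). Outside the head 11 of 18 were lower, with a median of -0.35. Among head proteins, Rps18 averaged 39.6 ± 2.67 FPKM in control and 27.0 ± 1.85 FPKM in CCl4 libraries (mean ± SD, n = 3; -0.54, limma adjusted p = 0.0031), and Rps15 309.7 ± 27.5 and 240.6 ± 26.6 (-0.37, limma adjusted p = 0.0323). Rps27a, which is made as a fusion with ubiquitin, had 41.13, 47.23 and 46.18 FPKM in control and 38.70, 32.61 and 34.77 in CCl4 libraries, a log2 difference of -0.34 (SE 0.09, limma adjusted p = 0.0265), and this call was lost under 11 of the 21 alternatives. Rps10, Rps12 and Rps20 of the head had differences of -0.28, -0.24 and -0.21 that did not pass the test.

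Rps6, the ribosomal target of the S6 kinases downstream of mTOR, had 160.32, 182.39 and 177.76 FPKM in control and 140.16, 122.66 and 118.75 in CCl4 libraries. The groups did not overlap, and the log2 difference was -0.45 (SE 0.09, limma adjusted p = 0.00888). Rpl10, an X-linked protein of the tRNA sites that joins the large subunit late in assembly, had 92.52, 105.99 and 111.25 FPKM in control and 78.05, 70.42 and 70.65 in CCl4 libraries, a log2 difference of -0.49 (SE 0.09, limma adjusted p = 0.00621). Its autosomal copy Rpl10l was not analysed here. Rpsa, which sits on the back of the small subunit and is also known as the laminin receptor, had 121.67, 138.10 and 126.37 FPKM in control and 123.39, 110.32 and 112.80 in CCl4 libraries. CCl4 replicate 1 lay above control replicate 1 in Rpsa, and the gene did not pass the test (-0.15, limma adjusted p = 0.189).

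Rpl3l stood apart as the 1 member called higher. This muscle form of Rpl3 (chromosome 17, 24727820 to 24736143) had 78.17, 64.98 and 57.62 FPKM in control and 91.69, 86.60 and 87.67 in CCl4 libraries. Its means were 66.9 ± 10.4 and 88.7 ± 2.68 FPKM (SD, n = 3 each), a log2 difference of 0.41 (SE 0.11, limma adjusted p = 0.0253). The CCl4 libraries were close together and the control libraries spread. Rescaled to TPM the difference was 0.26 (limma adjusted p = 0.126). Leaving out any 1 library other than control replicate 1 gave differences of 0.31 to 0.43 and adjusted p from 0.0605 to 0.0763, so the call was lost without any 1 of these 5 libraries.

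Rpl3, the general form (chromosome 15, 80077791 to 80091868), had 38.82, 43.42 and 49.84 FPKM in control and 44.25, 36.81 and 38.86 in CCl4 libraries, with overlapping groups (-0.13, limma adjusted p = 0.385). Their coding sequences were 73.6% identical and shared none of their 31-base words, but 97.4% of the words of Rpl3 also stood in other genes. As listed, Rpl3l was above Rpl3 in all 6 libraries. With its 2 pseudogene rows added Rpl3 had 47.56, 54.21 and 72.09 FPKM in control and 53.52, 49.91 and 49.44 in CCl4 libraries, which in control replicate 3 is above the 57.62 of Rpl3l. The ratio of Rpl3l to Rpl3 FPKM was 2.01, 1.497 and 1.16 in control and 2.07, 2.35 and 2.26 in CCl4 libraries. As a share of both, Rpl3l made up 66.8%, 59.9% and 53.6% in control and 67.4%, 70.2% and 69.3% in CCl4 libraries. The difference between the pair was 0.59 ± 0.39 on the log2 scale in control and 1.13 ± 0.09 in CCl4 libraries, mean and SD of 3 libraries. By an exact permutation test, two-sided, this gave p = 0.1, the lowest that 3 against 3 libraries can reach. Control replicate 1, at 2.01, lay just below the lowest CCl4 ratio. The cardiomyocyte marker sums given above also did not overlap between the groups and were higher in CCl4 libraries. Of those 18 markers, however, 3 were higher and 2 lower (background 9.64% and 22.2%), with a median of 0.12. Actc1 averaged 1734.8 FPKM in control and 5840.0 in CCl4 libraries, Des 516.1 and 300.9, and Myh7 955.3 and 71.2. The part of these markers in the Rpl3l values was not tested.

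**Figure D4:**
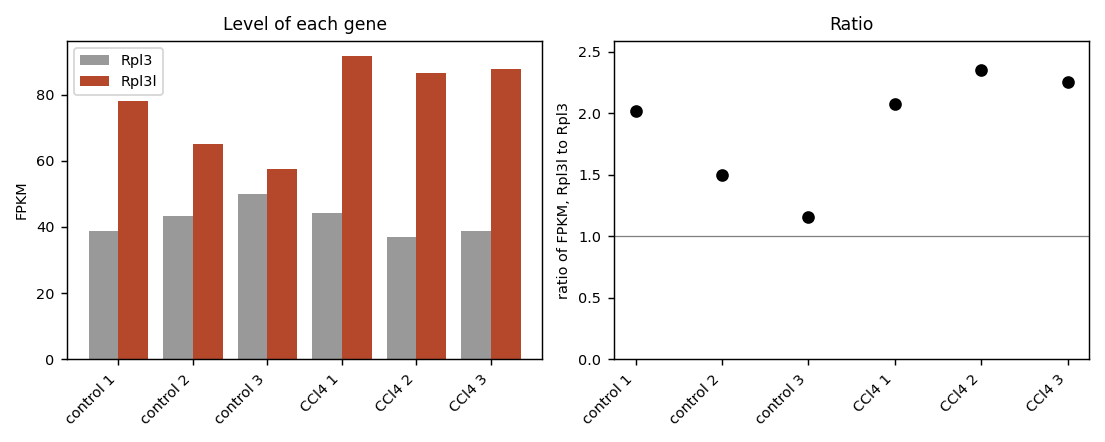
Left, FPKM of Rpl3 (grey) and its muscle form Rpl3l (red) in each library. Right, the ratio of Rpl3l to Rpl3 FPKM per library, with a line at 1. Ratios run from 1.16 to 2.01 in the control and from 2.07 to 2.35 in the CCl4 libraries.

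Rps2, at the mRNA entry of the small subunit and 5890 bp from Rpl3l on chromosome 17 (24718116 to 24721929), was not called. It had 227.50, 214.36 and 209.31 FPKM in control and 218.30, 214.66 and 227.71 in CCl4 libraries, with overlapping groups (0.02, SE 0.07, limma adjusted p = 0.843), and the sign turned under 4 of the 21 alternatives. Its annotation overlaps the non-coding gene Snhg9 on the other strand.

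Other members with a close copy behaved unevenly. Rps4x, the X-linked form of eS4, had 182.33, 198.70 and 197.79 FPKM in control and 160.30, 141.47 and 146.96 in CCl4 libraries, and was lower (-0.37, SE 0.08, limma adjusted p = 0.0117). Its autosomal copy Rps4l, 79.6% identical in coding sequence, had 15.67, 15.28 and 14.07 FPKM in control and 15.27, 13.84 and 17.73 in CCl4 libraries (0.05, limma adjusted p = 0.733). Rps27l, 76.2% identical to Rps27 and known as a p53 target, had 16.84, 16.31 and 16.56 FPKM in control and 18.49, 14.96 and 13.64 in CCl4 libraries (-0.08, limma adjusted p = 0.577). Differences between copy and parent were not tested for these pairs. Rpl22, an RNA-binding large-subunit protein, had 28.84, 34.07 and 31.98 FPKM in control and 25.59, 22.16 and 21.01 in CCl4 libraries, and was lower (-0.45, SE 0.10, limma adjusted p = 0.0113). Its copy Rpl22l1 averaged 3.72 and 3.10 FPKM (limma adjusted p = 0.341).

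The copies Rpl6l and Rpl32l were nearly identical to their parents, at 96.8% and 95.8% of the coding sequence, and shared 607 and 132 words with them, so their reads are hard to assign. Rpl6l averaged 10.7 ± 0.367 and 7.62 ± 0.350 FPKM (SD, n = 3 each) and was lower (-0.44, limma adjusted p = 0.00338), as was Rpl6 (69.3 and 55.6 FPKM, adjusted p = 0.0284). Rpl32l had 0.37, 0.90 and 0.75 FPKM in control and 0.29, 0.31 and 0.41 in CCl4 libraries. Rpl39l, 85.0% identical to Rpl39 and best known from testis, had 0.06, 0.00 and 0.04 FPKM in control and 0.18, 0.00 and 0.37 in CCl4 libraries. Both lay under the filter.

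Of the 28 tested members that were not called, 9 had CCl4 libraries all below the control libraries, where 34.0% of all tested rows did so. The 1 called gene whose groups overlapped was Rpl32. Rpl41, whose protein is among the shortest known, was the most variable by SE, with 77.19, 41.80 and 68.53 FPKM in control and 73.31, 48.48 and 33.27 in CCl4 libraries (limma adjusted p = 0.478). Rpl12 averaged 29.97 ± 3.16 and 28.1 ± 1.59 FPKM (SD, n = 3 each; adjusted p = 0.497 in limma). Without adjustment, 65 members had p under 0.05, 64 of them lower. The share of all tested rows at this unadjusted cutoff is not given here, nor for the other unadjusted counts. The members lie on 19 chromosomes, and 27 of the 82 overlap another annotated gene, 22 of these on the other strand. The strand setting of the counting, which decides which gene takes such reads, is not stated in the labels or notes.

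Ribosomal proteins whose symbols the rule does not take differed less evenly. Of 8 tested, limma called 3 lower and none higher (4 and 0 without adjustment), with a median of -0.28. That is 37.5% lower (background 22.2%). The count was 6 with TPM (background 34.9%), 2 with TMM (15.5%) and 1 with median-ratio scaling (14.9%). Rps3a1 had 310.57, 343.84 and 338.64 FPKM in control and 269.52, 233.67 and 242.91 in CCl4 libraries (-0.41, limma adjusted p = 0.00899). Rack1, a scaffold on the small subunit, averaged 57.9 and 44.7 FPKM (-0.37, adjusted p = 0.00733), and Fau, the precursor of eS30, 72.9 and 55.0 FPKM (-0.40, adjusted p = 0.0088), both in limma.

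Many genes that work with the ribosome were lower as well. Of 22 translation factors and other genes known for TOP mRNAs, limma called 16 lower and none higher (17 and 0 without adjustment; background 22.2% and 9.64%), with a median of -0.45. The count was 9 with no filter (background 4.01%), and 13 with TMM (15.5%), quantile and median-ratio scaling (14.9% each). Eef2, the factor that moves the ribosome along the mRNA, had 452.45, 518.34 and 486.36 FPKM in control and 310.43, 307.65 and 332.14 in CCl4 libraries (-0.61, limma adjusted p = 0.00146). Eif4b, a helper of the helicase that unwinds mRNA starts, averaged 59.5 and 33.0 FPKM (-0.83, limma adjusted p = 0.000349). Of 49 tested genes of ribosome assembly and rRNA synthesis, limma called 19 lower and none higher (27 and 0 without adjustment), with a median of -0.21. That is 38.8% lower (background 22.2%). The count was 34 of 50 with TPM (background 34.9%), 11 with TMM (15.5%) and 9 with quantile and median-ratio scaling (14.9% each). It was 7 of 50 with no filter (4.01%) and 9 without CCl4 replicate 3 (14.1%). Without CCl4 replicate 2 it was 12 (17.3%), and without control replicate 2 it was 11 of 48 (15.3%). Among them was Ipo5, an importer of ribosomal proteins into the nucleus (32.8 and 22.1 FPKM, limma adjusted p = 0.00146).

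Of 28 tested regulators of ribosomal protein synthesis limma called 17 lower and none higher (18 and 0 without adjustment), with a median of -0.33. That is 60.7% lower, against a background of 22.2% lower and 9.64% higher. With no filter 11 of 28 were lower (background 4.01%). With a minimum mean of 5 FPKM 11 of the 17 tested were lower (1510 of all 4915 rows). The list holds both activators and brakes. Ddit4, an inhibitor of mTOR complex 1, averaged 34.9 ± 3.60 and 6.45 ± 1.28 FPKM (SD, n = 3 each; -2.28, limma adjusted p = 7.77e-05). Eif4ebp1, a translation brake released by mTOR, averaged 38.2 ± 6.67 and 15.2 ± 0.322 FPKM (-1.26, limma adjusted p = 0.000326). Myc, an activator of ribosome synthesis, averaged 2.38 ± 0.847 and 0.787 ± 0.315 FPKM (-0.90, limma adjusted p = 0.0128), and Larp1 9.94 ± 0.386 and 7.72 ± 0.494 (-0.33, adjusted p = 0.0138). Mtor averaged 4.76 and 4.92 FPKM (0.04, limma adjusted p = 0.763). Myc is also 1 of the immediate early genes, which respond within minutes to many stimuli. Of these, 19 of 21 tested were lower (background 22.2%), with a median of -1.24, and 9 of 25 with no filter (4.01%). Their part in the ribosomal protein values was not tested.

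Ribosomal proteins of mitochondria, which translate the mitochondrial genome and whose mRNAs are also short, were called in the opposite direction with the FPKM as deposited and with TMM scaling, but in both directions with TPM. Of 78 tested, limma called none lower and 25 higher (2 and 36 without adjustment; background 22.2% and 9.64%), with a median of 0.20. Higher genes numbered 8 with no filter (495 of all 32479 rows) and 40 with quantile scaling (background 15.7%). They numbered 15 without control replicate 2 (655 of all 11003 rows). Without CCl4 replicate 1 or 3 they numbered 16 (880 of all 11016 and 631 of all 11014 rows). Mrpl45, which anchors the mitochondrial ribosome to the inner membrane, had 12.62, 10.99 and 12.05 FPKM in control and 20.36, 18.85 and 21.08 in CCl4 libraries (0.71, SE 0.08, limma adjusted p = 0.000791). Mrpl19 averaged 2.11 and 4.02 FPKM (0.69, limma adjusted p = 0.00156), and Mrpl49 11.3 and 16.4 FPKM (0.50, limma adjusted p = 0.00327). Rescaled to TPM this list had 9 lower and 9 higher genes (background 34.9% lower and 5.39% higher) and a median of 0.06. Under TMM scaling it had 0 lower and 36 higher (background 15.5% and 13.9%) and a median of 0.28. Its median lay above that of the cytosolic genes under both, at -0.50 with TPM and -0.25 with TMM scaling for the latter.

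Of 82 tested nuclear-encoded subunits of the respiratory chain 5 were lower and 11 higher (6.1% and 13.4%, background 22.2% and 9.64%), with a median of 0.05. With TPM 16 were lower and 3 higher (median -0.10, background 34.9% and 5.39%). With TMM scaling these counts were 0 and 14 (median 0.14, background 15.5% and 13.9%), and with quantile scaling 3 and 28 (background 14.9% and 15.7%). Without control replicate 1 the higher genes numbered 25 (1152 of all 10991 rows). Without CCl4 replicate 3 they numbered 3 (631 of all 11014 rows). Examples were Ndufa12 of complex I, at 38.8 and 55.1 FPKM (0.50, limma adjusted p = 0.00748), and Ndufa7, at 43.3 and 33.5 FPKM (-0.36, limma adjusted p = 0.00888). Of 37 tested proteasome subunits, another large assembly of abundant proteins, limma called 13 lower and none higher (20 and 3 without adjustment), with a median of -0.19. That is 35.1% lower (background 22.2%). The counts were 23 and 0 with TPM (background 34.9% and 5.39%), 9 and 3 with TMM (15.5% and 13.9%) and 8 and 4 with quantile scaling (14.9% and 15.7%). Psmd4, a ubiquitin receptor of the proteasome, averaged 36.2 and 18.1 FPKM (-0.96, limma adjusted p = 0.000385). Coding genes outside the family with a main transcript under 1000 bp had a median of 0.03 over 655 tested genes, with 73 lower and 116 higher, and those of 1000 bp or more had a median of -0.09 over 9080 genes, with 2057 lower and 857 higher.

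**Figure D5:**
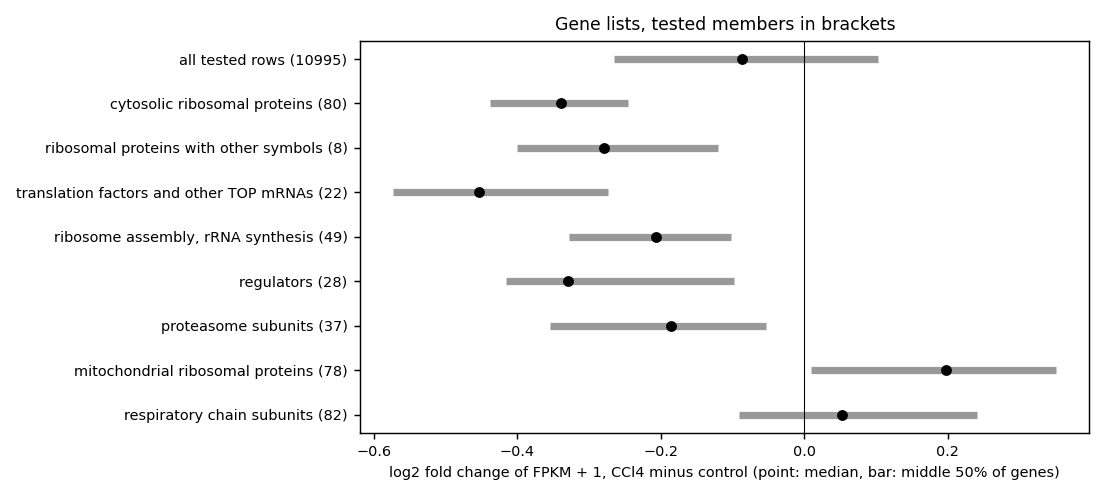
Log2 difference (CCl4 minus control, log2(FPKM + 1) scale) of gene lists, with the median as a point, the middle 50% of genes as a bar and the number of tested genes in brackets. Medians of the cytosolic ribosomal protein genes (-0.34) and the TOP list (-0.45) lie left of the median of all tested rows (-0.09), and that of the mitochondrial ribosomal proteins (0.20) lies right of 0.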

How the data were processed

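Libraries were made by oligo(dT) capture of mRNA with a uracil-marked second strand and read from both ends, per the labels' protocols. The authors deposited 1 table of FPKM values, for which the submitters' processing notes name StringTie 2.1.6 and GRCm38. Not given in the sources used here were aligner, annotation release, strand setting, multi-mapping rule and filters. FPKM sums ran from 519609 to 602763, and 21054 to 22395 rows per library had a value above 0. Of low values of 3565 single-exon genes, 25.6% to 37.9% lay within 10% of whole fragments, where an even spread gives 20%, so fragments could not be recovered, no count test was run and the depth is unknown.

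Values were analysed as log2(FPKM + 1) for the 10995 rows that averaged at least 1 FPKM, with limma 3.58.1 in R 4.3.3 (lmFit, eBayes with trend), two-sided, no covariate, Benjamini-Hochberg over all rows. Fold changes on this scale understate those of low genes. The method was tested on simulated data with independent noise, which did not cover shifts shared across the genes of a library. Members matched GENCODE M21 (GRCm38) by symbol in 82 of 82 cases. Positions, coding sequences and shared words come from it, start regions from RefSeq. Identity between coding sequences was computed with Biopython 1.88.

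The members and all gene lists were chosen with earlier results of these data known. Named with every library's value were the 6 called members with the lowest log2 difference, any called higher, and 19 set members, of which Rpl10l was not analysed here (Rpl3, Rpl3l, Rplp0 to Rplp2, Rpsa, Rpl5, Rpl11, Rps6, Rpl10, Rpl10l, Rpl39, Rpl39l, Rps27, Rps27l, Rps4x, Rps4l, Rps27a, Rpl22). Up to 3 genes per other list were those with the smallest p. Rps27rt, Rpl22l1, Rpl7a-ps11, Myc, Larp1 and Mtor were named after their values were seen. Alternatives were a pseudocount of 0.1 or 0.01, a minimum mean of 5 or none, TPM, TMM (trimming 30% and 5%), quantile and median-ratio scaling, removal of mitochondrial rows, pseudogene rows added, limma without trend, with robust variances or library weights, a replicate block, and each library left out. Removal of the nuclear copies of mitochondrial rows was added after seeing the data. The values of some members are not reported here.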

Additional observations from a re-analysis of the deposited data

How the results depend on the processing

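Of the 21 alternatives, those that changed the number of lower genes (51) by over 1.5 times included no filter on low values (16), TMM (23), quantile (24) and median-ratio scaling (21). The rest of them were leaving out CCl4 replicate 3 (26), CCl4 replicate 2 (28) or control replicate 2 (32). Leaving out any other library gave 34 to 63. Of the 52 called members, 8 were called in every alternative. The number of higher genes (1, Rpl3l) was 0 without a filter and with TPM, and 0 to 1 when 1 library was left out. Without a filter, 32479 rows were tested. The median log2 difference of the large subunit (-0.33) was -0.49 with TPM, -0.25 with TMM, -0.20 with quantile and -0.24 with median-ratio scaling, -0.41 without mitochondrial rows and -0.42 to -0.30 when 1 library was left out. That of the small subunit (-0.34) was -0.50 with TPM, -0.25 with TMM, -0.21 with quantile and -0.24 with median-ratio scaling. It was -0.41 without mitochondrial rows and -0.40 to -0.30 when 1 library was left out. Rps27l turned to 0.034 with quantile and 0.0075 with median-ratio scaling, and Rps4l to -0.10 with TPM and -0.021 without mitochondrial rows. When 1 library was left out Rps27l ranged from -0.2008 to 0.0056 and Rps4l from -0.0415 to 0.1264, both turning without CCl4 replicate 3. The cause of these changes was not tested. Of all calls, 30.3% were higher, against 13.4% with TPM, 47.2% with TMM, 51.2% with quantile, 49.0% with median-ratio scaling, 20.3% without mitochondrial rows and 41.0% without their nuclear copies too. The higher Rpl3l to Rpl3 difference (0.54) ranged from 0.35 to 0.75 when 1 library was left out. Same-numbered control and CCl4 libraries deviated together with correlations of -0.064, 0.046 and -0.038, so the numbers did not pair them, and a fit with the replicate number as a block gave 35 lower (background 16.3%) and 1 higher (7.83%). With unknown depth and 3 libraries a group, small differences could not be resolved.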
